A study of Rattus norvegicus with 12 samples.

Results

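The keratin genes were followed in rat laryngeal muscle after nerve injury. They were taken as every gene whose platform symbol is Krt with a number, measured by a probe set that carries that symbol alone, and 43 of the 14324 genes measured this way met the rule. For Krt8 and Krt18, which have 2 probe sets each, the probe set with the higher mean stands for the gene. The arrays formed 4 groups of 3, all from male F344 rats. In both injury groups, PCA injury and AC injury, the recurrent laryngeal nerve had been cut on one side, with 1 cm of nerve taken out. Rats of PCA control and AC control had the same approach with the nerve left whole. PCA is the posterior cricoarytenoid muscle, the abductor of the vocal folds, and AC is the adductor complex that closes the glottis. All rats were operated on under ketamine and xylazine, and tissue was taken 1 week later. Each surgery group had 10 animals according to the labels, which do not say which animal gave which array, if specimens were pooled, or which side the control tissue came from. The p-values thus reflect only how far these arrays differ, and that spread may be technical.

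Keratins are the intermediate filament proteins of epithelial cells. A filament is built from equal parts of a type I and a type II keratin, so the genes are used in pairs that mark the kind and layer of epithelium. Krt5 and Krt14 mark the basal layer of stratified epithelium, and Krt4 and Krt13 mark the layers above it in non-cornified mucosa such as that of the vocal folds. Krt1 and Krt10 mark the same layers in cornified epithelium, Krt8 and Krt18 mark simple epithelium, and the hair keratins build the hair shaft and its sheath. The members were placed by these roles into 3 basal, 11 suprabasal squamous, 5 simple and 21 hair keratins, with 3 (Krt24, Krt42 and Krt90) left unplaced. By type, 26 were type I and 17 type II.

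The values are deposited log2 levels, and array medians lay between 7.11 and 7.17. A list of 11 skeletal muscle genes, such as the muscle creatine kinase gene Ckm, had a mean log2 level of 12.13 to 12.98. Every array was within that range, so each specimen held muscle. Of the airway epithelium genes, Scgb3a1 was at 13.78 to 14.04 over the 12 arrays and Scgb1a1 at 12.39 to 13.26. Tekt1, at 5.87 to 6.64, and Rsph1, at 5.64 to 6.38, were low in every array. Whether each specimen held airway epithelium was not tested. The number of arrays limits the precision. A list of 10 thyroid and parathyroid genes stood at a mean log2 level of 9.88 in PCA injury 2, 10.00 in PCA control 1 and 8.66 in AC injury 2, against 6.17 to 7.12 in the other 9 arrays. Counts of keratins without these 3 arrays are given beside each comparison. Of that list, the gene Tg was also high in PCA control 3 (13.10) and PCA injury 1 (11.34), against 5.96 in PCA control 2. PCA control 3 and PCA injury 1 stay in those counts, which are therefore not free of thyroid signal. Differences are on the log2 scale and stand with their limma SE, the adjusted p is adjusted over all 14324 genes, and a gene is said to rise or fall only at an adjusted p under 0.05. In whole specimens, more epithelial cells and more keratin RNA per cell cannot be told apart. Since each keratin has its own probes, levels are compared between arrays and never between genes.

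The promoters of an epidermal keratin, a mucosal keratin and the simple pair are printed because these genes moved in different directions in the PCA. Of the 43 members, 32 matched an entry of the RefSeq promoter table (build GRCr8). Krt14, Krt15, Krt17, Krt1, Krt13, Krt16, Krt80, Krt19, Krt81, Krt83 and Krt86 had no entry. Each line holds the 250 bases before the start, 5′ to 3′, with matches to the searched motifs in capitals. Krt4 lies at chr7:134930714-134930963 on the minus strand, Krt10 at chr10:84839161-84839410 on the minus strand, Krt8 at chr7:135010340-135010589 on the minus strand and Krt18 at chr7:135035918-135036167 on the plus strand.
Krt4: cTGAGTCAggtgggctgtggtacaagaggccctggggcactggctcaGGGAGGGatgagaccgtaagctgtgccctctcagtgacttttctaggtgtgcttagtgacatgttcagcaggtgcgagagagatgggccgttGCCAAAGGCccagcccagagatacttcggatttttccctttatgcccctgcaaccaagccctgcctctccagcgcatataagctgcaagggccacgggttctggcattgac
Krt10: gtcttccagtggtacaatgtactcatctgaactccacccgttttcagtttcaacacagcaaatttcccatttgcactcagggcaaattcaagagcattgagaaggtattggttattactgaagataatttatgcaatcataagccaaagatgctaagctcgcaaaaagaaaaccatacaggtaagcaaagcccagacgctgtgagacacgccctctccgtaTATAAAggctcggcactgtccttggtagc
Krt8: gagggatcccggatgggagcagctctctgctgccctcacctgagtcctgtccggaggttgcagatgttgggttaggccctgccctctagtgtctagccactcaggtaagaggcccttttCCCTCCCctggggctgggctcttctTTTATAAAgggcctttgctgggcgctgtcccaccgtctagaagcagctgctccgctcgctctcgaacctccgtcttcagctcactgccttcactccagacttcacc
Krt18: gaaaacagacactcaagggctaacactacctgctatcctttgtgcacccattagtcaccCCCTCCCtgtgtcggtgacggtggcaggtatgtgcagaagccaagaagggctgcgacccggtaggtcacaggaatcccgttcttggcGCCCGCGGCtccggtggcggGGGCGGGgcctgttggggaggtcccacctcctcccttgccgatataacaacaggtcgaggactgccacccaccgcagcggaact

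The capitals in Krt10 are TATAAA, the letters of a TATA box, at -29 to -24 from the start. In Krt4 they are TGANTCA (letters bound by AP-1), GGGNGGG (Klf and Sp factors) and GCCNNNGGC (AP-2). Krt8 holds the reverse complement of GGGNGGG and TATAAA on both strands, where the matches overlap, at -106 to -99. Krt18 holds GGGNGGG on each strand and GCCNNNGGC between them. The AP-1 and AP-2 letters read the same on both strands. Searched on both strands, TATAAA was in 14 of 18 hair keratin promoters (77.8%), 3 of 7 suprabasal ones (Krt10, Krt12 and Krt76) and 2 of 4 simple ones (Krt8 and Krt20), against 13.1% of all 27457 promoters. Between -40 and -20 it was in those 3 suprabasal promoters and in 5 hair keratin promoters, against 1.4% of all. TGANTCA was in Krt4 alone among the 32, against 6.4% of all promoters. GCCNNNGGC was in Krt4, Krt9, Krt18 and Krt42, against 13.0% of all. GGGNGGG was in 3 of 7 suprabasal, 3 of 4 simple and 4 of 18 hair keratin promoters, against 42.7% of all. A spaced pair of CATG letters, as p63 binds, was in none of the 32 and in 0.3% of all. Krt4 and Krt10, which rose in the same comparison, had no searched motif in common. Krt8 and Krt18, which fell in it, both held GGGNGGG. Only exact letters were searched, so near matches were not counted. These matches describe the letters of the windows only.

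The keratin classes differed in how far their levels moved over the 12 arrays. The range from the lowest to the highest array had a median of 3.55 log2 for the 3 basal keratins and 2.62 for the 11 suprabasal ones, where Krt13 (6.71) and Krt4 (5.96) had the widest. It was 1.29 for the 5 simple keratins, 0.46 for the 21 hair keratins and 0.56 for the unplaced ones, against 0.55 over all genes. Among hair keratins Krt36 had the widest range (1.12).

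**Figure D1:**
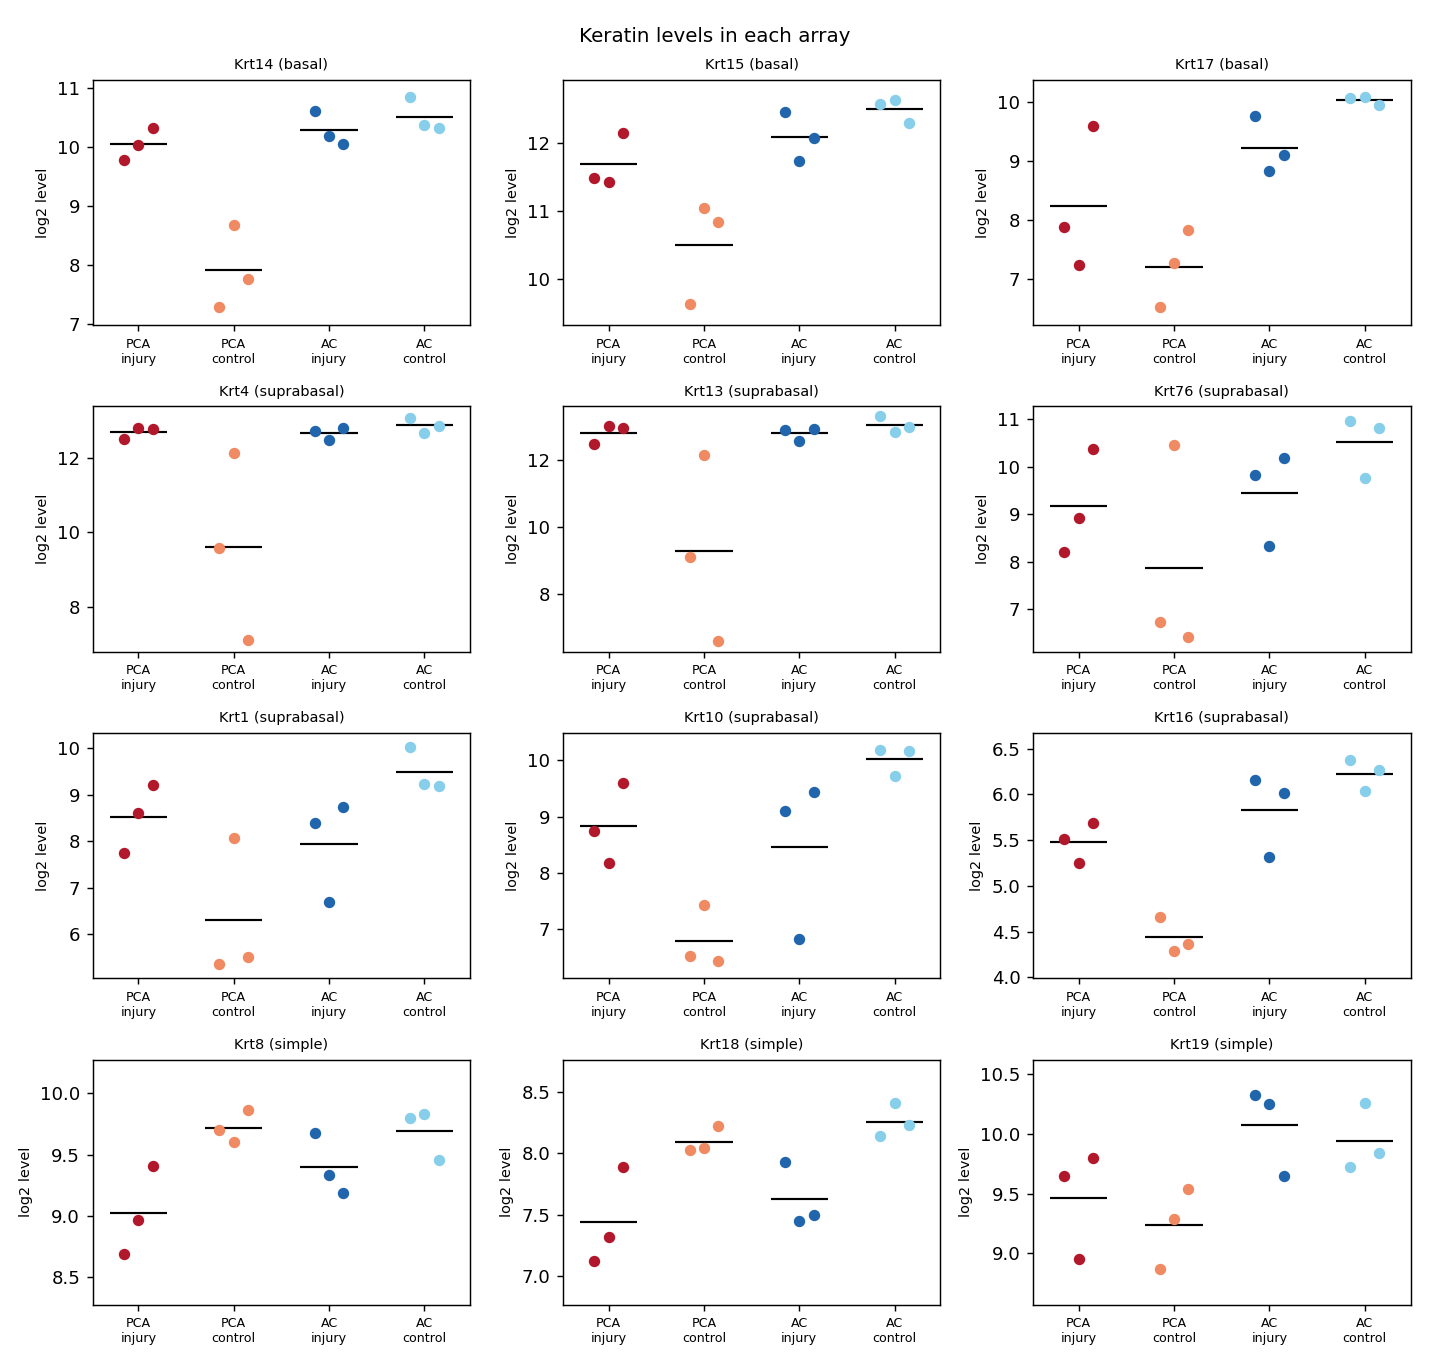
Log2 level of 12 keratins in each array (dots) by group, with the group mean as a line. The basal and suprabasal keratins shown had their lowest group mean in PCA control, where Krt4 and Krt13 spread over more than 5 log2 units, and Krt8 and Krt18 were lower in PCA injury than in PCA control.

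The first comparison asked which keratins differed in the PCA after nerve transection. Of the 43 members 10 passed, 8 higher and 2 lower. Over all genes 25.8% passed, 13.3% higher and 12.5% lower, and the keratins' total is near that background. The 8 that rose were 2 of 3 basal and 6 of 11 suprabasal keratins, and the 2 that fell were the simple pair Krt8 and Krt18.

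Krt14, the type I keratin of the basal layer, had log2 levels of 9.78, 10.04 and 10.33 in PCA injury, against 7.29, 8.68 and 7.77 in PCA control. All 3 injured arrays lay above all 3 controls. The difference was 2.14 ± 0.30 (4.40-fold, adjusted p = 0.00081), and it passed when any single array was left out.

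Krt15, a type I keratin of basal cells and of hair follicle stem cells, had 11.48, 11.43 and 12.15 in PCA injury, against 9.63, 11.04 and 10.84 in PCA control. The groups did not overlap, and PCA control 1 lay furthest down. Krt15 rose by 1.18 ± 0.33 (2.27-fold, adjusted p = 0.0235). Without PCA control 1 the difference was 0.75 ± 0.24 (adjusted p = 0.0533), and without PCA injury 3 it was 0.95 ± 0.35 (0.0786).

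Krt17, which basal cells and skin appendages make and which wounding induces in epidermis, had 7.87, 7.24 and 9.59 in PCA injury, against 6.52, 7.27 and 7.82 in PCA control. These groups overlapped and Krt17 did not pass. PCA injury 1 and 3 stood above every control array, the first of them narrowly, and PCA injury 2 did not.

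Krt13, the type I keratin of the layers above the basal one in mucosa, had 12.48, 13.01 and 12.94 in PCA injury, against 9.09, 12.13 and 6.58 in PCA control. The injured arrays lay within 0.53 of each other, while the controls spread over 5.55. The difference was 3.54 ± 0.97 (11.70-fold, adjusted p = 0.0211), with no overlap.

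Krt4, its type II partner, had 12.50, 12.78 and 12.77 in PCA injury, against 9.58, 12.12 and 7.11 in PCA control. The order of the controls was that of Krt13, and again the groups did not overlap. Krt4 rose by 3.08 ± 0.87 (8.46-fold, adjusted p = 0.0244). Without PCA control 3 the differences were 2.20 for Krt13 and 1.83 for Krt4, and without PCA control 2 they were 4.97 and 4.34. Krt13 passed without PCA control 3 and did not pass without PCA control 1 (adjusted p = 0.0566) or PCA injury 2 (0.0532). Krt4 did not pass without PCA control 1 or without any 1 of the injured PCA arrays (0.0548 to 0.0593).

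Krt76, a type II keratin of the gums and hard palate, had 8.20, 8.92 and 10.38 in PCA injury, against 6.73, 10.46 and 6.41 in PCA control. PCA control 2 was the highest of these 6 arrays, so the groups overlapped and the gene did not pass.

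The cornified-layer keratins showed the same high control array. Krt10 had 8.74, 8.17 and 9.59 in PCA injury, against 6.52, 7.43 and 6.42 in PCA control. Its groups did not overlap, and it rose by 2.04 ± 0.59 (4.12-fold, adjusted p = 0.0267). It did not pass without PCA control 1, PCA control 3, PCA injury 1 or PCA injury 3 (0.0609 to 0.0908).

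Krt1, the type II partner of Krt10, had 7.75, 8.61 and 9.20 in PCA injury, against 5.35, 8.06 and 5.50 in PCA control. PCA control 2 lay above PCA injury 1, so these groups overlapped, and the other pair of controls lay below all injured arrays. Krt1 passed narrowly, with a difference of 2.22 ± 0.72 (4.65-fold, adjusted p = 0.0426), and lost its call when any 1 of 8 arrays was left out (0.0522 to 0.148) or with a replicate block (0.0751).

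Krt16, a type I keratin that skin injury induces together with the Krt6 genes, had 5.51, 5.25 and 5.69 in PCA injury, against 4.66, 4.29 and 4.36 in PCA control. Each group was tight, within 0.44 and 0.37, and the difference was 1.05 ± 0.20 (2.07-fold, adjusted p = 0.00395). Like Krt14, it passed whichever array was left out. Its level was low, at 4.29 to 6.37 over the 12 arrays, so it was not tested where genes with a mean under 6 were left out.

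Krt80, a type II keratin of differentiating epithelial cells, had 8.21, 8.84 and 9.07 in PCA injury, against 7.60, 8.02 and 6.93 in PCA control. There was no overlap, and it rose by 1.19 ± 0.31 (2.28-fold, adjusted p = 0.0154). It did not pass without PCA control 3 (0.0623) or PCA injury 3 (0.0512).

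The other 4 suprabasal keratins did not pass. Krt12, the type I keratin of the cornea, had 6.75, 6.92 and 7.47 in PCA injury, against 6.81, 6.88 and 6.81 in PCA control. Krt2, Krt9 and Krt77, which are keratins of skin, stayed between 4.77 and 5.98 in all 6 PCA arrays. Thus 6 of 11 suprabasal keratins rose, with a class median of 1.19, and 2 of 3 basal ones, with a class median of 1.18. The median over all genes was -0.03.

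Of the 5 simple keratins 2 fell and none rose, with a class median of 0.23. Krt8, the type II keratin of simple epithelium, had 8.69, 8.97 and 9.41 in PCA injury, against 9.70, 9.60 and 9.86 in PCA control. All injured arrays lay below all controls, and Krt8 fell by 0.70 ± 0.18 (1.62-fold, adjusted p = 0.017). It did not pass without PCA control 3 (0.0667) or PCA injury 1 (0.066).

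Krt18, its type I partner, had 7.12, 7.32 and 7.89 in PCA injury, against 8.03, 8.04 and 8.22 in PCA control. Again there was no overlap, with a difference of -0.65 ± 0.18 (1.57-fold lower, adjusted p = 0.0237). It did not pass without PCA control 3, PCA injury 1 or PCA injury 2 (0.0709 to 0.091). Their second probe sets differed in size but not in direction, at -0.54 for Krt8 and -0.24 for Krt18.

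Krt19, a short type I keratin whose protein has been found with Krt8 at the costameres of striated muscle, had 9.65, 8.95 and 9.80 in PCA injury, against 8.87, 9.29 and 9.54 in PCA control. The groups overlapped, with a difference of 0.23 ± 0.26 (adjusted p = 0.565). With array weights it was -0.05, so its direction was not settled. Krt23 had 7.91, 8.31 and 9.05 in PCA injury, against 6.93, 8.06 and 7.52 in PCA control, and did not pass. Krt20, known from gut epithelium, stayed between 5.24 and 5.83 in these 6 arrays.

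None of the 21 hair keratins passed in the PCA. By unadjusted p under 0.05 the limma fit had 3 of 21 (36.9% of all genes), and with PCA injury 3 left out Krt32 passed. Their differences ran from -0.29 to 0.39 with a median of -0.02, and their mean level was 5.97 to 6.08 in every array of the series. The widest difference was that of Krt36, a hard keratin also known from the tongue's papillae, with 5.86, 5.96 and 6.32 in PCA injury, against 5.40, 5.68 and 5.89 in PCA control. Of 3 measured partners of the hair shaft, such as the desmosomal cadherin Dsg4, none passed by limma, and none had an unadjusted p under 0.05. None of the 3 unplaced keratins passed either, and 1 of them had an unadjusted p under 0.05. Of these, Krt90 had 7.65, 7.76 and 7.98 in PCA injury, against 7.34, 7.63 and 7.62 in PCA control, without overlap.

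Counting non-overlap alone, 10 keratins lay higher and 3 lower in PCA injury, against 18.2% of all genes higher and 18.8% lower. The number that passed turned on single PCA arrays. It was 5 without PCA control 1 (Krt14, Krt16, Krt80, Krt8 and Krt18), 5 without PCA control 3 (Krt14, Krt15, Krt16, Krt4 and Krt13), 6 without PCA injury 3, 7 without PCA injury 1 or 2, and 11 without PCA control 2. With the 2 PCA groups fitted alone it was 4 (Krt10, Krt14, Krt16 and Krt8). Without the 3 arrays high in thyroid and parathyroid genes it was also 4 (Krt10, Krt14, Krt15 and Krt16). For these refits the share of all genes that passed is not given, so their counts do not set keratins apart from other genes.

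**Figure D2:**
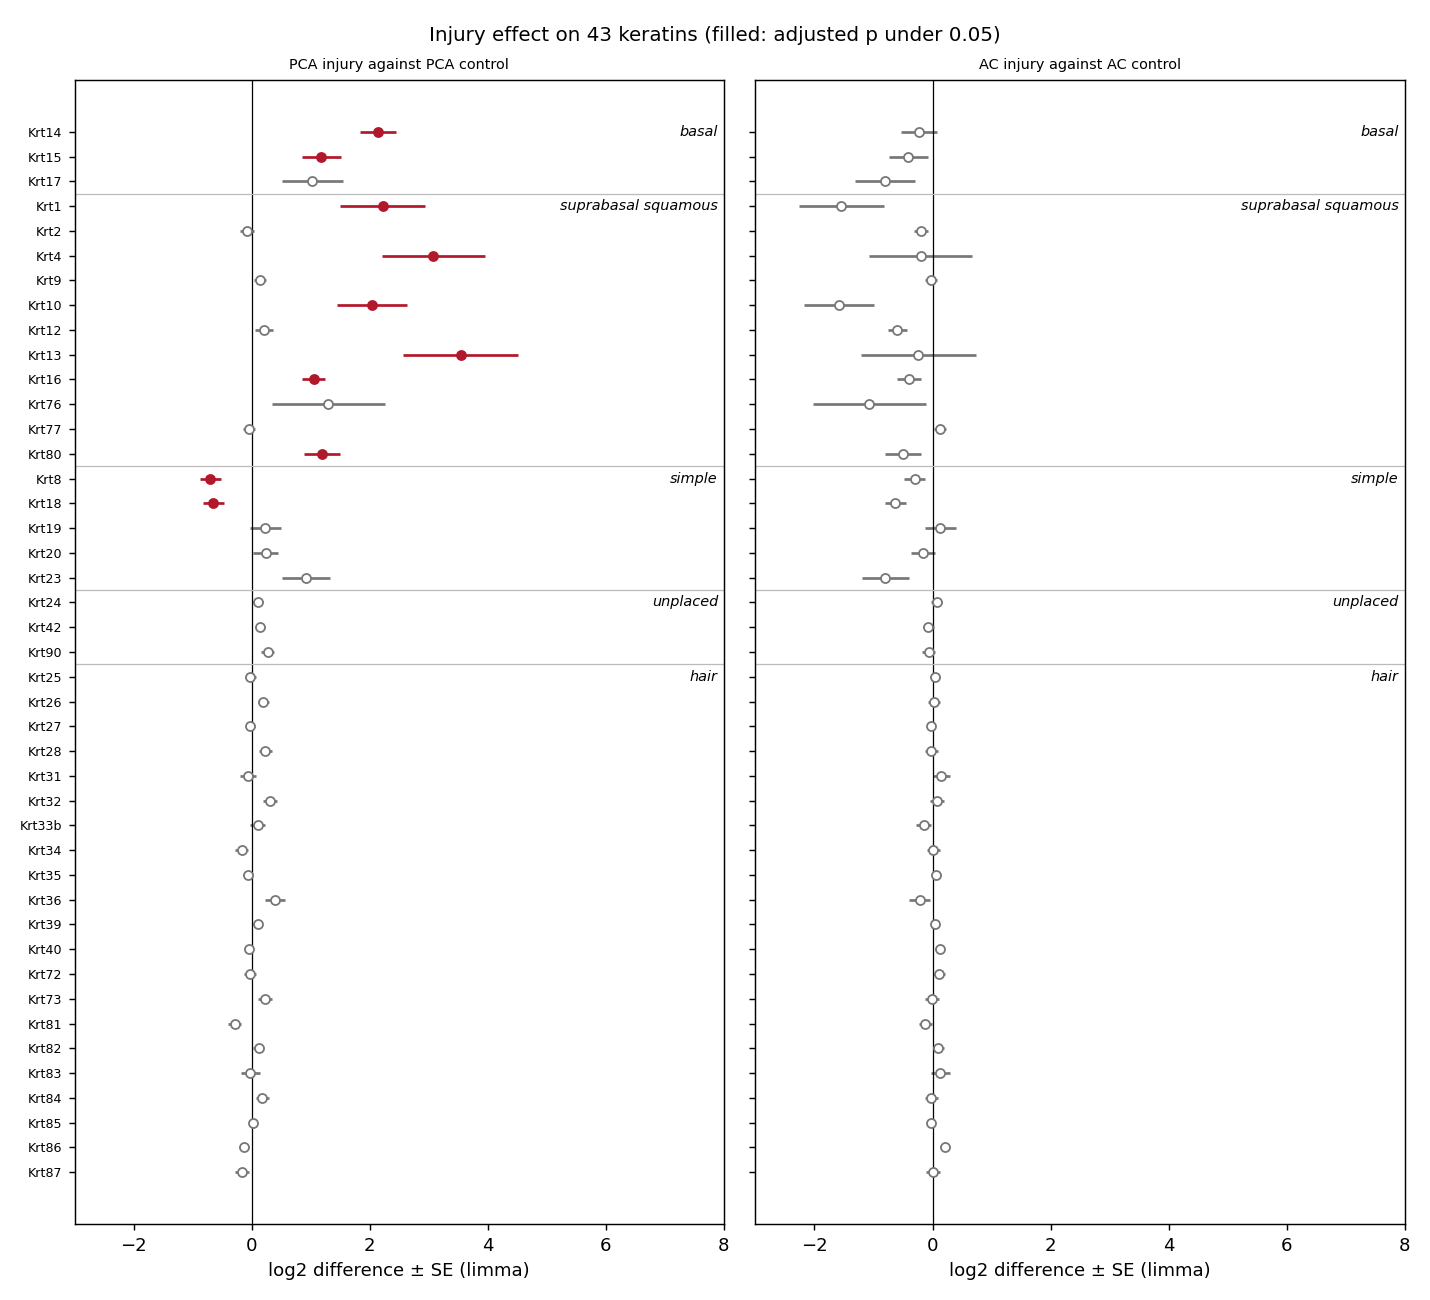
Log2 difference of injury minus control with the limma SE for 43 keratins in the PCA (left) and the AC (right), by class, with filled dots at an adjusted p under 0.05. In the PCA 8 keratins passed higher and 2 lower, no hair keratin passed, and no keratin passed in the AC.

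Genes of squamous epithelium other than keratins moved with the basal and suprabasal keratins that rose. Their list was chosen with earlier results of these data known, so it is not independent support. A list of 12, such as the epithelial regulator Tp63 and the desmosomal plaque gene Pkp1, had a mean log2 level of 9.00, 9.47 and 9.71 in PCA injury, against 7.56, 8.54 and 7.50 in PCA control. As for Krt4, Krt13 and Krt1, PCA control 2 was the highest control. Of the 12 genes 10 rose and none fell, with a median of 1.37, against 13.3% of all genes that rose. With the mean of this list in each array as a covariate, 2 keratins passed (Krt28 and Krt76) and none of the 10 named above. The directions of Krt28 and Krt76 in that fit are not given here. The difference was then 0.75 ± 0.31 for Krt14, -0.31 ± 1.29 for Krt13, -0.22 ± 1.21 for Krt4, -0.99 ± 0.34 for Krt8 and -0.96 ± 0.34 for Krt18. The covariate itself differs between the groups, which takes precision from that fit.

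Of 9 genes of epithelium in general, such as Epcam and Cdh1, 1 rose (Rab25) and none fell, and their mean was 8.48 to 9.12 in PCA injury, against 8.68 to 8.99 in PCA control. Of 8 airway epithelium genes 1 rose (Cyp2f4) and none fell, with means of 9.62 to 9.86 in PCA injury, against 9.39 to 9.86 in PCA control. The 10 thyroid and parathyroid genes had none past the limma test and none with an unadjusted p under 0.05. Of 11 skeletal muscle genes 5 fell and none rose, with means of 12.13 to 12.82 in PCA injury, against 12.82 to 12.98 in PCA control. Fibroblast genes rose in 5 of 6 cases and macrophage genes in 6 of 7. Over all genes 13.3% rose and 12.5% fell, and the counts of general and airway epithelium genes that rose were near that share. The part of muscle, fibroblast and macrophage content in the keratin differences was not tested.

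**Figure D3:**
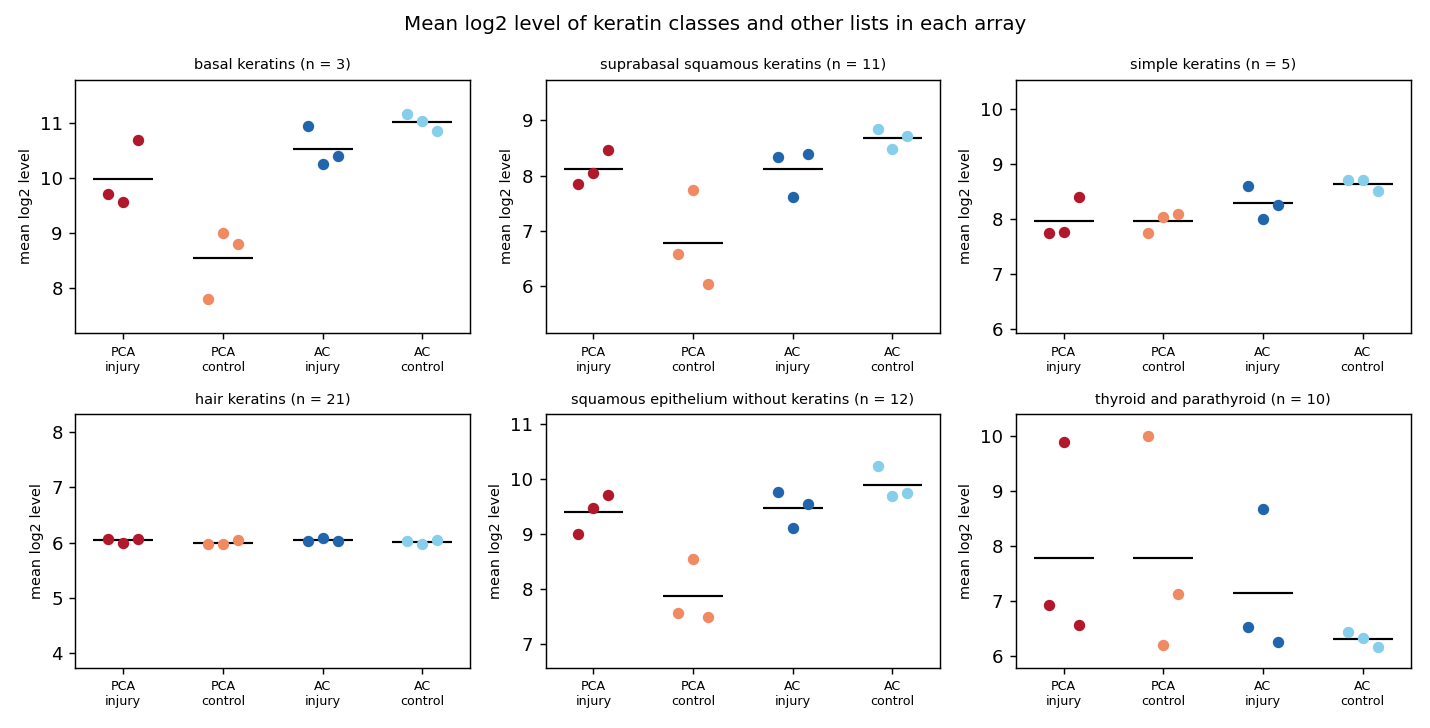
Mean log2 level per array (dots; line, group mean) of 4 keratin classes, of squamous epithelium genes without keratins and of thyroid and parathyroid genes. The squamous list was at 9.00 to 9.71 in PCA injury, against 7.50 to 8.54 in PCA control, hair keratins were at 5.97 to 6.08 in all arrays, and 3 arrays stood high in thyroid and parathyroid genes.

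In the AC, no keratin passed after injury by limma (0 of 43; 1.89% of all genes passed). At an unadjusted p under 0.05 there were 4 of 43, against 20.2% of all genes. With array weights 2 passed (Krt12 and Krt18), and with the 2 AC groups alone 1 did (Krt12). Leaving out PCA injury 3, which changes the shared spread, also gave Krt12 and Krt18, and leaving out PCA injury 1 gave Krt12. Without the 3 arrays high in thyroid and parathyroid genes the count was 0.

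No basal keratin passed in the AC. Krt14 had 10.61, 10.19 and 10.05 in AC injury, against 10.84, 10.38 and 10.33 in AC control, a difference of -0.23 ± 0.30 (adjusted p = 0.723). Krt15 had 12.46, 11.74 and 12.07 in AC injury, against 12.57, 12.63 and 12.30 in AC control (-0.41 ± 0.33, adjusted p = 0.543). Both genes had overlapping groups. Krt17 had 9.75, 8.82 and 9.09 in AC injury, against 10.06, 10.07 and 9.94 in AC control, so that all injured arrays lay lower.

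Krt13 had 12.89, 12.55 and 12.92 in AC injury, against 13.29, 12.82 and 12.98 in AC control (-0.24 ± 0.97, adjusted p = 0.921). Krt4 had 12.72, 12.47 and 12.80 in AC injury, against 13.07, 12.67 and 12.84 in AC control (-0.20 ± 0.87, adjusted p = 0.928). Unlike in PCA control, all 6 AC arrays lay close together for this pair, at 12.55 to 13.29 for Krt13.

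The cornified-layer keratins spread more. Krt10 had 9.10, 6.82 and 9.43 in AC injury, against 10.19, 9.73 and 10.17 in AC control. Krt1 had 8.39, 6.68 and 8.73 in AC injury, against 10.03, 9.23 and 9.18 in AC control. In both genes all injured arrays lay below the controls, with AC injury 2 far below the rest. AC injury 2 was the lowest of its group for 11 of the 14 basal and suprabasal keratins, and it is 1 of the 3 arrays high in thyroid and parathyroid genes. Its squamous list stood at 9.10, against 9.76 and 9.55 in the other AC injury arrays.

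Among simple keratins, Krt18 had 7.93, 7.45 and 7.50 in AC injury, against 8.14, 8.41 and 8.23 in AC control. The groups did not overlap, with a difference of -0.63 ± 0.18 (adjusted p = 0.0937), close to that in the PCA, but its second probe set gave -0.05. Krt8 had 9.68, 9.33 and 9.19 in AC injury, against 9.80, 9.83 and 9.46 in AC control (-0.30 ± 0.18, adjusted p = 0.403). Krt19 had 10.32, 10.25 and 9.65 in AC injury, against 9.72, 10.26 and 9.84 in AC control (0.13 ± 0.26, adjusted p = 0.825). Both of these overlapped. Class medians were -0.41 for basal, -0.40 for suprabasal, -0.30 for simple and 0.02 for hair keratins, against 0.02 over all genes. Non-overlap was seen for 1 keratin higher (Krt86) and 7 lower, against 15.3% and 13.1% of all genes. Of the 12 squamous genes without keratins none passed by limma in the AC, against 1.89% of all genes. At an unadjusted p under 0.05 there was 1, against 20.2% of all genes.

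Whether injury acted differently on keratins in the 2 muscles was tested as the difference of the injury effects, PCA minus AC. By limma none of the 43 passed, and 0.154% of all genes did. At an unadjusted p under 0.05 there were 13 of 43, against 15.7% of all genes. Krt14 came closest, at 2.37 ± 0.43 (adjusted p = 0.061), and Krt15 was at 1.59 ± 0.47 (0.127). Krt13 was at 3.79 ± 1.38 (0.21) and Krt4 at 3.28 ± 1.24 (0.226). Among the simple keratins it was -0.40 ± 0.26 for Krt8 (0.492), -0.02 ± 0.26 for Krt18 (0.98), 0.10 ± 0.37 for Krt19 (0.928) and 1.72 ± 0.56 for Krt23 (0.16). The class medians were 1.83 for basal, 1.69 for suprabasal, 0.10 for simple and 0.00 for hair keratins, against -0.05 over all genes. This count turned on 1 array: without PCA control 2, the control with the high Krt4 and Krt13, 7 keratins passed (Krt1, Krt4, Krt10, Krt13, Krt14, Krt16 and Krt80), all higher in the PCA. Array weights gave 4 (Krt10, Krt14, Krt16 and Krt80), and leaving out the 3 arrays high in thyroid and parathyroid genes gave 0. Here too the share of all genes that passed in each refit is not given. The same squamous list without keratins had 12 of 12 genes above 0 in this difference, and none passed by limma (12 had an unadjusted p under 0.05).

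The 2 muscles were then set against each other in rats without nerve injury. Here 12 of 43 keratins passed and all were lower in PCA control than in AC control, against 10.6% of all genes (3.24% higher and 7.39% lower). Since PCA control also enters the injury comparison, the 2 sets of values are not independent.

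All 3 basal keratins were lower in PCA control, with differences of -2.60 ± 0.30 for Krt14 (adjusted p = 0.00158), -2.00 ± 0.33 for Krt15 (0.00476) and -2.82 ± 0.51 for Krt17 (0.00648). None of the 3 overlapped between the muscles. Krt17, for example, reached 7.82 at most in PCA control and 9.94 at least in AC control.

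Of the suprabasal keratins 7 of 11 were lower. Krt13 differed by -3.76 ± 0.97 (adjusted p = 0.032), Krt4 by -3.26 ± 0.87 (0.0374), Krt10 by -3.24 ± 0.59 (0.00684) and Krt1 by -3.18 ± 0.72 (0.018). Krt16 (-1.79 ± 0.20, 0.00151), Krt80 (-1.74 ± 0.31, 0.00583) and Krt12 (-0.96 ± 0.16, 0.00449) had smaller differences with smaller errors. Krt12, which did not pass after injury, was tight here, with 6.81 to 6.88 in PCA control, against 7.74 to 7.87 in AC control. Krt76, at 6.41 to 10.46 in PCA control, against 9.76 to 10.97 in AC control, overlapped through PCA control 2.

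Of the simple keratins only Krt23 passed, at -1.96 ± 0.40 (adjusted p = 0.0106), with 6.93, 8.06 and 7.52 in PCA control, against 9.76, 9.25 and 9.39 in AC control. Krt8 differed by 0.02 ± 0.18 (adjusted p = 0.95), and its sign turned to -0.06 with the mean of its probe sets. Krt18 was at -0.16 ± 0.18 (0.609), and at 0.01 with the mean of its probe sets. Krt19 was at -0.71 ± 0.26 (0.109), without overlap. The only hair keratin to pass was Krt36, at -0.63 ± 0.17 (0.0347), with 5.40, 5.68 and 5.89 in PCA control, against 6.52, 6.02 and 6.31 in AC control.

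Non-overlap alone was seen for 19 keratins lower and 4 higher, against 15.9% and 17.7% of all genes. The 12 squamous genes without keratins were all lower, with means of 7.50 to 8.54 in PCA control, against 9.69 to 10.24 in AC control. With that list as a covariate, no keratin passed by limma, and no gene of all those tested did. Without the 3 arrays high in thyroid and parathyroid genes 8 keratins passed, and 7 without AC control 1. Krt13 did not pass without PCA control 1, PCA control 3 or any 1 of the AC controls (0.058 to 0.103), and Krt4 also lost its call without any 1 of the AC injury arrays (0.0508 to 0.113 in all) and with a replicate block (0.0539). Without PCA control 3 the differences were -2.42 for Krt13 and -2.01 for Krt4. Krt1 did not pass without PCA control 1, PCA control 3 or AC control 1 (0.0692 to 0.0755), Krt23 without AC control 1 (0.0503), and Krt36 without PCA control 1, PCA control 2, AC control 1 or AC control 3 (0.0664 to 0.132).

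In injured rats no difference between the muscles passed. No keratin and no other gene of the 14324 passed by limma (0%), while 2 of 43 keratins and 3.6% of all genes had an unadjusted p under 0.05. Without the 3 arrays high in thyroid and parathyroid genes the count by limma was also 0. Krt14 differed by -0.23 ± 0.30, Krt15 by -0.40 ± 0.33, Krt4 by 0.02 ± 0.87 and Krt13 by 0.02 ± 0.97 (adjusted p = 0.999 for each). The SEs of the last pair include the wide PCA controls, since the model shares its spread over the groups. Krt8 was at -0.38 ± 0.18, Krt18 at -0.18 ± 0.18 and Krt19 at -0.61 ± 0.26 (0.999 for each). For Krt4 and Krt13, PCA injury (12.48 to 13.01 over both genes) and AC injury (12.47 to 12.92) spanned nearly the same levels.

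Keratin genes lie in 2 clusters, in which genes that passed stood among genes that did not. The order given here is that of the measured keratins in the RefSeq annotation, and genes not measured can lie between them. By it, 25 of the type I genes lie on chromosome 10. All 17 type II genes lie on chromosome 7, with the type I gene Krt18 after Krt8 at the end of the row. On chromosome 10, Krt10 rose between the hair keratin Krt28 and Krt12, neither of which passed. Further along, Krt13 and Krt15 rose after Krt36, and then Krt19 and Krt9, which did not pass, lay before Krt14 and Krt16. On chromosome 7, Krt1 rose between Krt2 and Krt77, and the last 3 measured genes were Krt4, which rose, and Krt8 and Krt18, which fell.

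**Figure D4:**
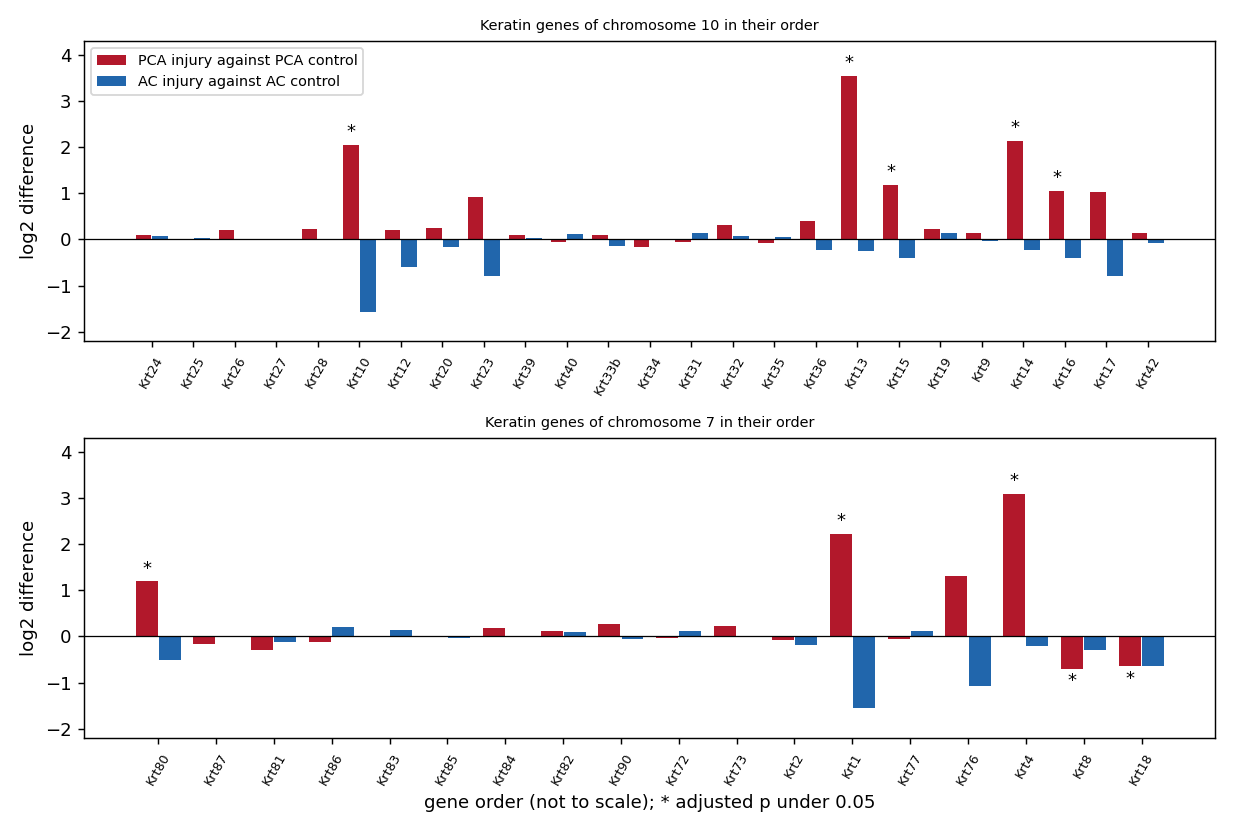
Log2 difference of injury minus control in the PCA and the AC for the measured keratin genes of chromosomes 10 and 7, in annotation order and not to distance, with a star at an adjusted p under 0.05. Starred genes stand among unstarred hair keratins, and Krt4 (3.08) comes before Krt8 (-0.70).

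Partner keratins ordered the single arrays in much the same way. Krt4 and Krt13 ranked the arrays alike in 62 of 66 pairs of arrays, Krt1 and Krt10 in 60 and Krt8 and Krt18 in 57. These counts are a description, as the arrays share their groups. No pair of non-partner genes was counted, so the counts do not set partners apart from other genes. Within groups, PCA injury 3 was the highest of its group for 10 of the 14 basal and suprabasal keratins, PCA control 2 for 9 and AC control 1 for 9. Krt16 was among the exceptions, with its lowest level of all arrays in PCA control 2, at 4.29.

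The genes that anchor, regulate or resemble keratin filaments were read in the PCA after injury. Over all genes 13.3% rose and 12.5% fell there, with a median of -0.03. Of 10 desmosome and filament anchor genes measured (16 listed), 6 rose and 1 fell, with a median of 0.87. Pkp1, which links desmoplakin to the desmosomal plaque, had 10.71, 11.14 and 11.20 in PCA injury, against 7.38, 10.13 and 7.15 in PCA control. It rose by 2.80 ± 0.61 (adjusted p = 0.00729), with the same high control as Krt4. Periplakin (Ppl), which ties keratin filaments to desmosomes, rose by 1.88 ± 0.42 (0.00811), and Perp, a desmosomal membrane protein under p63 control, by 0.85 ± 0.18 (0.00637). The 1 that fell was Pkp2, known from heart and simple epithelia.

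Hemidesmosomes hold basal keratins to the basement membrane. Of 7 of their genes measured (9 listed) 1 rose and none fell, with a median of -0.07, against 13.3% of all genes that rose. The riser was Col17a1, a transmembrane collagen of these plaques, with 8.37, 8.46 and 8.64 in PCA injury, against 7.46, 8.13 and 7.59 in PCA control (0.76 ± 0.18, adjusted p = 0.00949). The laminin chain Lamb3 was at -0.29 ± 0.10 (0.0536), and the linker plectin (Plec) at -0.07 ± 0.09 (0.586).

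Of 13 transcription factors known to act on keratinocyte genes (16 listed), 5 rose and 2 fell (Ehf and Grhl2), with a median of 0.49, against 13.3% and 12.5% of all genes. Prdm1 rose by 1.41 ± 0.27 (adjusted p = 0.00354), Grhl3 by 2.65 ± 0.59 (0.00788) and Ovol1 by 1.58 ± 0.35 (0.00801), all known for roles in epidermal differentiation. Tp63, the regulator of the basal layer, had 8.31, 8.50 and 9.05 in PCA injury, against 7.21, 8.15 and 7.93 in PCA control. It rose by 0.86 ± 0.25 (0.0269), and not without PCA control 1 (0.0866) or PCA injury 3 (0.0894).

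Other intermediate filament genes were mixed, with 4 of 14 higher, 1 lower and a median of -0.06, against 13.3% of all genes higher and 12.5% lower. Vim, the filament of mesenchymal cells, had 13.35, 13.05 and 13.12 in PCA injury, against 12.34, 12.62 and 12.45 in PCA control (0.70 ± 0.11, adjusted p = 0.00129). Lmnb1, a nuclear lamin, rose by 0.77 ± 0.13 (0.00219), and Bfsp1, known from the lens, fell by 0.39 ± 0.08 (0.00366). In the AC, none of the anchor, hemidesmosome or regulator genes passed by limma, against 1.89% of all genes. At an unadjusted p under 0.05 there were 1 of 10, 2 of 7 and 4 of 13, against 20.2% of all genes. Of the 14 other filament genes 1 passed in the AC, the nestin gene Nes, which was higher. In PCA control against AC control, 7 of 10 anchor genes, 1 of 7 hemidesmosome genes, 8 of 13 regulators and 3 of 14 other filament genes were lower, against 7.39% of all genes, and none of these was higher. Tp63, Pkp1 and Dsc3 stand both in these lists and in the squamous list, so the counts are not independent.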

How the data were processed

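Total RNA of laryngeal muscle was labelled with biotin (100 ng, from 30 to 50 mg of tissue) and hybridised to 12 Affymetrix whole-transcript rat arrays, per the labels' protocols. The authors deposited 1 log2 value per probe set and array. Per the submitters' processing notes, which name Partek and RMA with no version or role, base 2 was assumed for the deposited log2 values, whose range is 2.57 to 14.04. RMA scales the arrays to one distribution, so a change is one relative to the array's remaining genes. The background step is not given in the sources.

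Of 27342 probe sets 15097 carry a single symbol and were tested. Those with several symbols (323, of which 2 name keratins) or without a symbol (11922) were not. Symbols were checked by gene identifier against RefSeq (GRCr8, for names and neighbour order): 15067 matched, 30 did not. Where a gene had more than 1 probe set (499 genes) the brightest on average was kept, leaving 14324 genes without a filter on low values. Groups came from the sample titles.

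One limma model (3.58.1, R 4.3.3) with 4 group means used all 12 arrays (lmFit, eBayes; 8 residual and 3.14 prior degrees of freedom). Its 5 contrasts were two-sided, adjusted over all genes by Benjamini-Hochberg and called under 0.05. The fit was tested on simulated data. Alternatives covered normalization, filters, probe set choice, prior, array weights, replicate blocks, groups fitted, thresholds, a squamous score and left-out arrays. Keratins were named with fold changes if past the threshold, and Krt14, Krt15, Krt4, Krt13, Krt8, Krt18 and Krt19 always. Krt5 belongs to that rule but has no probe set of its own. From other lists the first gene and the 3 with the smallest adjusted p were given. The members, lists and alternatives were chosen with earlier results of these data known. Promoter sequences are RefSeq's.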

Additional observations from a re-analysis of the deposited data

Results flagged for a closer look

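Krt10 drew attention because its injured arrays lay on opposite sides of their controls in the 2 muscles. They were higher in the PCA (8.74, 8.17 and 9.59 in PCA injury, against 6.52, 7.43 and 6.42 in PCA control). In the AC they were lower (9.10, 6.82 and 9.43 in AC injury, against 10.19, 9.73 and 10.17 in AC control). The difference of the injury effects, PCA minus AC, was 3.62 log2 and did not pass limma's test over all genes (adjusted p = 0.0721).

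A probe set that carries the symbols of both Krt5, the basal partner of Krt14, and Krt75, a keratin of the hair follicle, was outside the gene tests. It stood 0.56 log2 higher in PCA injury, with 6.94, 7.12 and 7.44 in PCA injury, against 6.78, 6.58 and 6.47 in PCA control. In the AC it had 7.46, 7.06 and 7.42 in AC injury, against 7.50, 7.27 and 7.41 in AC control. Which of the 2 genes gave this signal cannot be told apart.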

How the results depend on the processing

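In PCA injury against PCA control 10 keratins passed, and 4 with the 2 groups alone, 2 at an adjusted p of 0.01, 2 with the squamous score as a covariate, 4 without the 3 arrays high in thyroid and parathyroid genes, and 5 to 11 with each array left out. In AC injury against AC control the count of 0 became 2 with array weights, 1 with the 2 groups alone, 2 at an adjusted p of 0.1, and 0 to 2 with each array left out. For the difference of the injury effects the count of 0 became 1 without the genes under the median level (Krt14), 4 with array weights, 4 at an adjusted p of 0.1, and 0 to 7 with each array left out. In PCA control against AC control 12 became 7 at an adjusted p of 0.01, 0 with the covariate, and 7 to 13 with each array left out. In PCA injury against AC injury the count was 0 under every alternative run. Shares of all genes are not given for these alternatives, so a changed count may not be particular to keratins.

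Equal replicate numbers did not pair the arrays: over 18 same-numbered pairs the correlation of deviations from the group means was -0.39 to 0.34, with 4 over 0.1, and 1 of 12 arrays correlated best with its own number. The replicate block gave 9, 0, 0, 11 and 0 keratins in these 5 comparisons, losing Krt1 in the PCA and Krt4 between the control muscles. As a random block (correlation -0.05) it gave 10, 0, 0, 12 and 0.

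With the squamous score as a covariate, differences changed sign in PCA injury against PCA control for Krt1 (-1.43), Krt10 (-0.03), Krt13 (-0.31), Krt4 (-0.22), Krt80 (-0.25), Perp (-0.03), Pkp1 (-0.14), Ppl (-0.27), Col17a1 (-0.09), Grhl3 (-0.30), Ovol1 (-0.21) and Tp63 (-0.14). They did so in AC injury against AC control for Krt14 (0.14), Krt4 (0.70) and Krt13 (0.80), in the difference of the effects for Krt4 (-0.92) and Krt13 (-1.11), and in PCA control against AC control for Krt1 (1.64), Krt13 (1.33), Krt23 (0.34), Krt4 (1.11), Krt80 (0.16) and Krt18 (0.24). Pkp1 and Tp63 belong to the list behind that score, so a smaller difference for them under it was built in. The other sign changes were of values near 0. In PCA injury against AC injury, Krt13 was at -0.01 with quantile normalization, and Krt4 at -0.12 and Krt13 at -0.20 without the 3 arrays. With the mean of the probe sets, Krt8 was at -0.06 and Krt18 at 0.01 in PCA control against AC control. With array weights Krt19 was at -0.05 in the PCA and -0.19 in the difference of the effects. With each array left out, the difference of the effects ran from -0.24 to 0.14 for Krt18 and -0.11 to 0.36 for Krt19, Krt8 in PCA control against AC control from -0.10 to 0.09, and PCA injury against AC injury from -0.08 to 0.11 for Krt4 and -0.09 to 0.19 for Krt13. Of all 1662 recomputed values, 1491 kept their direction and side of the threshold and 47 changed sign. Among the rest, which kept their direction, 109 no longer passed and 15 newly passed. Some of those that changed sign also no longer passed, such as Krt13 in the PCA with the covariate. The causes were not tested.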
